A study of Mus musculus with 12 samples.

Results

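The 9 genes described here make proteins with which endothelium steers clotting and clot lysis: *Plat*, *Plau*, *Plaur*, *Serpine2*, *Thbd*, *Procr*, *Tfpi*, *Vwf* and *F2r*. They were chosen by name, with earlier results of these data known, and a row with each name was found in both deposited tables, so that 9 of the 15768 genes shared by the tables are covered. The cells were tdTomato-positive cells from glomeruli, labelled as glomerular endothelial cells (GEC) and split by flow sorting into a dim and a bright fraction (dim tdT, bright tdT). Below, GEC stands for that label and not for a cell type shown by the markers. They came from 3 wild-type (WT) and 3 Alport syndrome (AS) mice that lack functional *Col4a5*, the gene of a type IV collagen chain of the glomerular basement membrane. All mice were sex-matched, 4 months of age and on a C57BL/6 background, and all carried a Tek-Cre transgene and a ROSA26 tdTomato reporter, so that the colour marks cells in which Tek-Cre has been active at any time. Each mouse gave 1 dim tdT and 1 bright tdT library of poly-A RNA, and the 12 libraries form 4 groups of 3.

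Plasmin dissolves fibrin. It is cut from plasminogen by tissue-type (*Plat*) and urokinase-type (*Plau*) activators, the second of which is held at the cell surface by its receptor (*Plaur*), while serpins such as *Serpine2* block both activators and thrombin. Endothelium also limits clotting itself, since thrombomodulin (*Thbd*) turns thrombin into an activator of protein C, the protein C receptor (*Procr*) presents that substrate, and tissue factor pathway inhibitor (*Tfpi*) blocks the first step of the cascade. Thrombin signals to cells through the receptor PAR1 (*F2r*), and von Willebrand factor (*Vwf*) tethers platelets and is widely used as a marker of endothelium, although many glomerular capillaries hold little of it.

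Counts on genes were 11440169 to 13923267 per dim tdT library and 13674045 to 15074909 per bright tdT library. The mutated gene *Col4a5* had 37.9 to 74.6 CPM, that is counts scaled to library size by TMM, in WT-dim tdT and 1.36 to 3.62 CPM in AS-dim tdT libraries. In bright tdT libraries it had 4.79 to 10.1 CPM in WT and 3.06 to 6.69 CPM in AS, ranges that overlapped, so this gene checks the labels of the dim tdT libraries only. Endothelial markers set the fractions apart. A list of 15 of them, all listed in both tables and none at 0 in any library, summed to 13253 to 20485 CPM in bright tdT, 857 to 1596 CPM in WT-dim tdT and 247 to 340 CPM in AS-dim tdT libraries. A list of 18 leukocyte markers summed to 9200 to 15516 CPM in WT-dim tdT and 17064 to 20092 CPM in AS-dim tdT libraries, where no marker was at 0. In bright tdT libraries, where 14 of the 18 were listed, the sum was 57.3 to 152 CPM. In every library of the dim tdT fraction, labelled as GEC, the leukocyte sum exceeded the endothelial sum. Proximal tubule markers, 10 genes, summed to 1290 to 6429 CPM in WT-dim tdT, 19.0 to 373 CPM in AS-dim tdT, 369 to 2668 CPM in WT-bright tdT and 24.4 to 448 CPM in AS-bright tdT libraries. Each table was scaled by itself for these sums. In such bulk samples fewer cells of a type and less RNA per cell cannot be told apart.

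**Figure D1:**
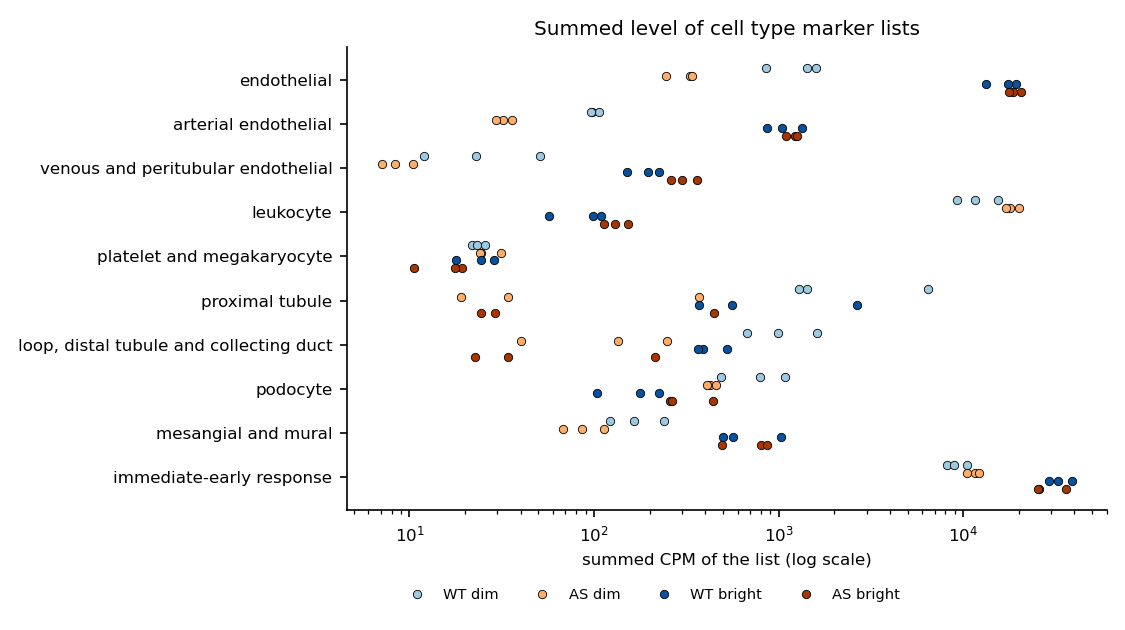
Summed CPM on a log axis of 10 marker lists, with 1 point for each library and a colour for each group. Endothelial sums were 13253 to 20485 CPM in bright tdT and 247 to 1596 CPM in dim tdT libraries, and leukocyte sums were 57.3 to 152 CPM in bright tdT and 9200 to 20092 CPM in dim tdT libraries.

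Most of the 9 genes were higher in bright tdT than in dim tdT GEC. In WT mice 6 were higher (*Plat*, *F2r*, *Procr*, *Thbd*, *Tfpi* and *Serpine2*) and 1 was lower (*Vwf*), while *Plau* and *Plaur* did not pass the test (quasi-likelihood F test of edgeR, p adjusted by Benjamini-Hochberg across every gene tested, threshold 0.05). In AS mice 8 were higher and only *Vwf* was lower. Of all genes tested in WT 25.3% passed, 13.8% higher and 11.5% lower, and of those tested in AS 55.1% passed, 28.6% higher and 26.5% lower. Libraries of the fractions did not overlap for 7 of the 9 genes in WT and for 8 in AS, against 42.1% (20.2% higher, 21.9% lower) and 62.4% (31.4% higher, 30.9% lower) of all genes tested. The median log2 fold change of the 9 genes was 2.57 in WT and 3.59 in AS, against -0.036 and 0.018 over all genes tested. Over the 15 endothelial markers it was 3.67 in WT, with 14 higher, and 6.19 in AS, with 15 higher. For AS over WT, 3 of the 8 genes tested fell in the dim tdT GEC (*Plat*, *Plau* and *F2r*) and none rose, where 8.63% of all genes tested passed, 6.42% lower and 2.21% higher. In the bright tdT GEC none of the 9 passed, where 0.452% of all genes tested did (0.188% higher, 0.264% lower). WT and AS libraries did not overlap for 4 of the genes in each fraction, against 31.3% (15.3% higher, 16% lower) of all genes tested in dim tdT and 24.6% (14.4% higher, 10.3% lower) in bright tdT GEC. At an unadjusted p under 0.05 there were 3 of 9 there, *Plaur*, *Thbd* and *Serpine2*, against 3145 of all 14396 genes tested. DESeq2 called 2 of 9, *Plaur* and *Thbd*, against 1117 of the 14396. The effect of AS itself differed between the fractions for 2 of the 9, *Plat* and *F2r*, against 3.77% of all genes tested (2.96% higher, 0.815% lower). Since the genes were chosen with results of these libraries in view, these counts are a description and not independent evidence. CPM below come from a single scaling of all 12 libraries, and fold changes from the fit of each comparison.

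**Figure D2:**
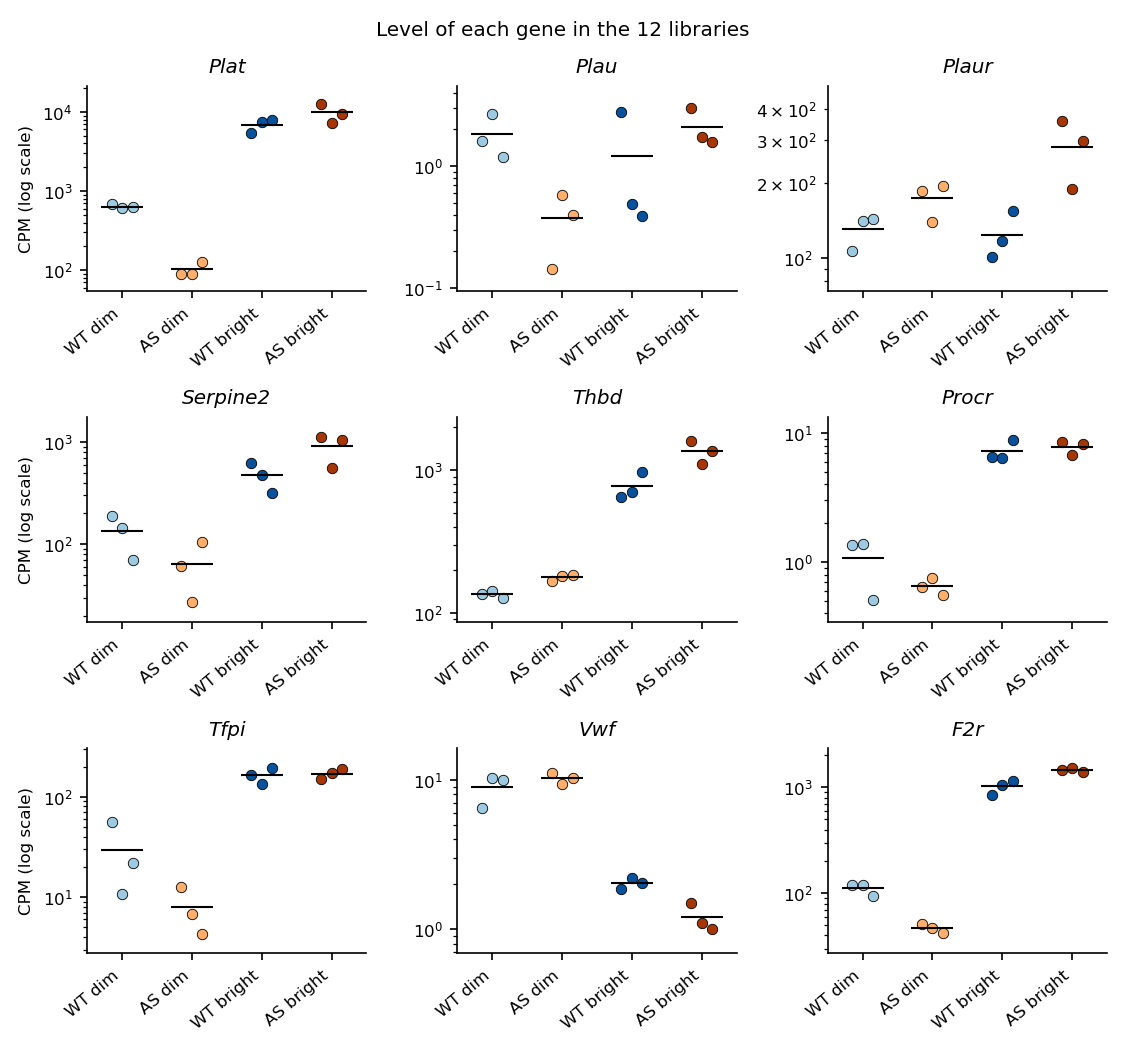
CPM of the 9 genes on log axes, 1 panel for each gene, with 1 point for each of the 3 libraries of a group and a bar at the group mean. In 7 panels every bright tdT point of AS lies above every AS-dim tdT point, in the *Vwf* panel every one lies below, and in the *Plaur* panel the AS groups overlap.

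*Plat* (ENSMUSG00000031538, chromosome 8, 22757727 to 22782844, plus strand; GRCm38 coordinates, as for all 9 genes, which are protein-coding), the activator of plasminogen that endothelium secretes, was the most abundant of the 9 per kilobase in bright tdT GEC. WT-dim tdT libraries had 683, 602 and 627 CPM in replicates 1 to 3, and AS-dim tdT libraries had 90.5, 89.9 and 126 CPM. WT-bright tdT libraries had 5422, 7371 and 7843 CPM, and AS-bright tdT libraries had 12770, 7290 and 9472 CPM. Both dim tdT groups lay far below both bright tdT groups and did not overlap each other, whereas the bright tdT groups overlapped. In AS-bright tdT libraries *Plat* alone took 0.780% to 1.23% of all counts on genes and ranked 7th to 18th per kilobase of merged exons among 17505 genes. The AS-dim tdT group was 6.30-fold lower than the WT-dim tdT group (log2 fold change -2.65, standard error 0.20, adjusted p = 0.00747). This call was lost (log2 fold change -2.60, adjusted p = 0.0599) without AS-dim tdT replicate 1, and with the leukocyte (-2.42, adjusted p = 0.114) or proximal tubule (-2.89, adjusted p = 0.235) markers as a covariate. The sums of both marker lists did not overlap between WT-dim tdT and AS-dim tdT libraries, so these covariate fits cannot separate genotype from marker level. Adjusted p ran from 6.79e-27 to 0.235 over the 17 alternatives. In bright tdT GEC the change of 0.46 did not pass (95% interval -0.20 to 1.12, adjusted p = 0.396). The AS effect differed between the fractions by 3.15 on the log2 scale (standard error 0.36, adjusted p = 0.00222), and this difference passed in 20 of 20 alternatives.

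Within each mouse *Plat* was higher in bright tdT than in dim tdT GEC, 7.94-, 12.2- and 12.5-fold in the WT mice and 141-, 81.1- and 75.0-fold in the AS mice. The fitted log2 fold change was 3.52 in WT (standard error 0.27, adjusted p = 3.22e-05) and 6.61 in AS (standard error 0.33, adjusted p = 1.21e-07). Against the counts of the 15 endothelial markers *Plat* varied much less. It had 368 to 715 counts per 1000 marker counts in WT-dim tdT, 265 to 363 in AS-dim tdT, 387 to 459 in WT-bright tdT and 397 to 628 in AS-bright tdT libraries. In WT the fractions overlapped on this scale, and in AS the bright tdT group was 1.58-fold higher (2.17-fold against *Pecam1* and *Cdh5* alone). AS-dim tdT libraries were 1.58-fold lower than WT-dim tdT libraries on this scale, with no overlap, and against *Pecam1* and *Cdh5* alone the AS mean was 0.337 of the WT mean.

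*Plau* (ENSMUSG00000021822, chromosome 14, 20836660 to 20843385, plus strand), the urokinase-type activator, was close to the limit of detection, with 2 to 43 counts per library. Its levels were 1.62, 2.68 and 1.19 CPM in WT-dim tdT, 0.142, 0.583 and 0.400 CPM in AS-dim tdT, 2.75, 0.485 and 0.392 CPM in WT-bright tdT and 2.99, 1.74 and 1.59 CPM in AS-bright tdT libraries. AS-dim tdT libraries lay below those of WT-dim tdT and AS-bright tdT, and overlapped 2 of the 3 WT-bright tdT libraries. AS over WT in dim tdT GEC was -2.31 on the log2 scale (standard error 0.62, adjusted p = 0.0468), a call that passed in only 3 of 16 alternatives (adjusted p 0.0310 to 0.844) and was lost without WT-dim tdT replicate 1 or 2 or any 1 AS-dim tdT library. Bright tdT over dim tdT GEC was -0.48 in WT (95% interval -2.21 to 1.24, adjusted p = 0.676) and 2.52 in AS (standard error 0.58, adjusted p = 0.00361). The difference of these effects did not pass (3.06, adjusted p = 0.115). Without WT-bright tdT replicate 1, which held 43 of the counts against 7 and 6 in the other libraries of its group, that difference was 4.52 (adjusted p = 0.0153). AS over WT in bright tdT GEC was 0.70 (adjusted p = 0.593), and 2.20 (adjusted p = 0.132) without that library. Bright tdT over dim tdT GEC in WT ran from -1.96 to -0.044 with 1 library left out.

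*Plaur* (ENSMUSG00000046223, chromosome 7, 24462484 to 24475968, plus strand) makes the urokinase receptor, which leukocytes also carry. It had 106, 141 and 144 CPM in WT-dim tdT, 187, 140 and 195 CPM in AS-dim tdT, 101, 116 and 154 CPM in WT-bright tdT and 358, 190 and 298 CPM in AS-bright tdT libraries. All WT and dim tdT libraries lay within 101 to 195 CPM, and only AS-bright tdT libraries reached higher. In WT the fractions did not differ beyond the spread between mice (log2 fold change 0.0064, 95% interval -0.58 to 0.60, adjusted p = 0.988). In AS bright tdT was above dim tdT by 0.71 (standard error 0.24, adjusted p = 0.0296) and in 3 of 3 mice. This call was lost without AS-dim tdT replicate 1 (adjusted p = 0.0639) or 2 (0.113) and without AS-bright tdT replicate 1 (0.131) or 3 (0.0797). For AS over WT in bright tdT GEC all AS libraries lay above all WT libraries, which 14.4% of all genes tested did, and the log2 fold change of 1.13 (standard error 0.27) missed the threshold (adjusted p = 0.0669, range 0.00478 to 0.757 over 17 alternatives, of which 4 passed, among them the fit without AS-bright tdT replicate 2 with 0.0363). In dim tdT GEC it was 0.41 (adjusted p = 0.268), and the difference between the fractions, 0.76, did not pass (adjusted p = 0.291). Against the endothelial markers *Plaur* had 6.10 to 17.6 counts per 1000 in bright tdT and 72.8 to 736 in dim tdT libraries. Leukocyte marker RNA moved in the same direction as this ratio and its part in it was not tested.

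The RefSeq promoter of *Plaur* is shown because it holds the same AP-1 letters as those of *F2r* and *Procr* below, while *Plaur* did not pass between the fractions in WT. The window is the 250 bases before the RefSeq start on GRCm38.p6, chr7:24462233-24462482, plus strand. Capitals mark the letters TGANTCA, the AP-1 motif, found in 6.75% of 32851 promoter windows of this length, and GGGCGG, the GC box, found in 32.7%, on either strand.

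Plaur: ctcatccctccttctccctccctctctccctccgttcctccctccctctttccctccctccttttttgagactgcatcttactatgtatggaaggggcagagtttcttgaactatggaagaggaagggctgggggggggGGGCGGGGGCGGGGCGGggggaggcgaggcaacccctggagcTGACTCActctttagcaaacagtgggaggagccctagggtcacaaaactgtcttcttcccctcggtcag

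*Serpine2* (ENSMUSG00000026249, chromosome 1, 79794197 to 79861180, minus strand) makes protease nexin 1, an inhibitor of thrombin and of both plasminogen activators. Its levels were 190, 145 and 70.4 CPM in WT-dim tdT, 61.4, 26.9 and 104 CPM in AS-dim tdT, 626, 477 and 317 CPM in WT-bright tdT and 1123, 554 and 1058 CPM in AS-bright tdT libraries. Bright tdT and dim tdT groups did not overlap in either genotype, and WT and AS overlapped in both fractions. Within mice bright tdT was 3.29-, 3.30- and 4.50-fold higher in WT and 18.3-, 20.6- and 10.1-fold higher in AS. The log2 fold change was 1.91 in WT (standard error 0.39, adjusted p = 0.00668) and 3.84 in AS (standard error 0.46, adjusted p = 6.50e-05). The difference of the effects was 2.005 (adjusted p = 0.109). It was 2.08 and passed with the mouse as a replicate block (adjusted p = 0.00821), and 2.31 without WT-dim tdT replicate 3 (adjusted p = 0.0489). AS over WT did not pass in dim tdT (-1.08, adjusted p = 0.218) or bright tdT GEC (0.88, adjusted p = 0.156). Markers of mesangial and mural cells, which also make this serpin, summed to 496 to 1034 CPM in bright tdT and 68.3 to 240 CPM in dim tdT libraries (11 and 9 of 11 listed), and their part in the level of *Serpine2* was not tested.

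*Thbd* (ENSMUSG00000074743, chromosome 2, 148404466 to 148408188, minus strand, 1 transcript) makes thrombomodulin. It had 134, 141 and 126 CPM in WT-dim tdT and 167, 181 and 183 CPM in AS-dim tdT libraries, so the AS-dim tdT group lay above the WT-dim tdT group. WT-bright tdT libraries had 644, 705 and 979 CPM and AS-bright tdT libraries 1605, 1113 and 1358 CPM, and here too every AS library lay above every WT library. The log2 fold change of AS over WT was 0.39 in dim tdT (95% interval 0.0097 to 0.77, adjusted p = 0.179) and 0.75 in bright tdT GEC (95% interval 0.22 to 1.28, adjusted p = 0.122). Neither passed in the main test, and DESeq2 called the second (adjusted p = 0.0466). Of all genes tested, 15.3% and 14.4% had every AS library above every WT library in these comparisons. Bright tdT over dim tdT GEC was 2.62 in WT (standard error 0.25, adjusted p = 0.000101) and 2.96 in AS (standard error 0.19, adjusted p = 7.88e-07), with 4.79- to 7.78-fold and 6.16- to 9.61-fold differences within mice. The difference of 0.40 between these effects had a 95% interval of -0.22 to 1.01 (adjusted p = 0.506). Against the endothelial markers, *Thbd* had 86.2 to 143 counts per 1000 in WT-dim tdT and 526 to 658 in AS-dim tdT libraries, against 37.0 to 57.3 in WT-bright tdT and 60.7 to 78.9 in AS-bright tdT libraries. The AS-dim tdT mean was 5.34-fold above the WT-dim tdT mean on this scale (2.77-fold against *Pecam1* and *Cdh5* alone). The endothelial markers that form the denominator took 0.0816% to 0.166% of counts in WT-dim tdT and 0.0257% to 0.0342% in AS-dim tdT libraries. The leukocyte sum was higher in AS-dim tdT libraries (17064 to 20092 against 9200 to 15516 CPM), and its part in this ratio was not tested.

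*Procr* (ENSMUSG00000027611, chromosome 2, 155751117 to 155755471, plus strand), which makes the endothelial protein C receptor, was rare. It had 1.35, 1.38 and 0.510 CPM in WT-dim tdT and 0.639, 0.749 and 0.560 CPM in AS-dim tdT libraries, which were 6 to 16 counts. WT-bright tdT libraries had 6.53, 6.38 and 8.88 CPM and AS-bright tdT libraries 8.55, 6.76 and 8.16 CPM, at 92 to 136 counts. Both bright tdT groups lay above both dim tdT groups, and the genotypes overlapped within each fraction. Between bright tdT and dim tdT GEC the log2 fold change was 2.83 in WT (standard error 0.56, adjusted p = 0.00567) and 3.59 in AS (standard error 0.42, adjusted p = 4.70e-05). For AS over WT *Procr* fell below edgeR's filterByExpr limit in dim tdT GEC and was not tested there, and in bright tdT GEC the change was 0.043 (95% interval -0.73 to 0.81, adjusted p = 0.957). The difference of the AS effects was 0.82 (95% interval -0.72 to 2.35, adjusted p = 0.595).

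The promoters of *Procr* and *F2r* (PAR1) are shown because, with that of *Plaur*, they are the windows that hold the AP-1 letters. Both genes rose in bright tdT GEC of both genotypes, as did *Serpine2* and *Tfpi*, whose windows lack these letters. They are chr2:155750967-155751216, plus strand, and chr13:95618467-95618716, minus strand, of GRCm38.p6, written 5′ to 3′. Capitals mark TGANTCA (AP-1, in 6.75% of windows) and CCACCC (KLF, in 28.1%) in both, and CCGGAA (ETS, in 12%) and GGGCGG (GC box, in 32.7%) in *F2r*, on either strand. The AP-1 letters began at -154 in *Procr*, -204 in *F2r* and -69 in *Plaur*, in bases from the start. The TATA box letters TATAAA were in none of the 3 windows printed (12.4% of all windows), nor were the GATA letters AGATAA (9.99%). Such matches describe letters and not bound sites.

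Procr: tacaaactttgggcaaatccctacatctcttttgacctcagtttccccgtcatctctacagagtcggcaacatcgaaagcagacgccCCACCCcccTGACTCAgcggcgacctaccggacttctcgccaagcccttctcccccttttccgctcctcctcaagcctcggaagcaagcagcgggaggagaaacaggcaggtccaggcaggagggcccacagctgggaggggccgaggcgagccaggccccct
F2r: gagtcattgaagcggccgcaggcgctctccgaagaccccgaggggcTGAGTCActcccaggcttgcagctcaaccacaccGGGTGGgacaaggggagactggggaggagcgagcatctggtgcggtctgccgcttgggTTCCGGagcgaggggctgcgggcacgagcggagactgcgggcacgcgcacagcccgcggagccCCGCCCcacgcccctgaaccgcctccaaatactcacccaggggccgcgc

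*Tfpi* (ENSMUSG00000027082, chromosome 2, 84432855 to 84476775, minus strand, 10 transcripts) makes the inhibitor of the tissue factor and factor VIIa complex. Dim tdT libraries varied widely, with 56.1, 10.8 and 21.9 CPM in WT and 12.5, 6.83 and 4.32 CPM in AS. Bright tdT libraries had 163, 133 and 195 CPM in WT and 150, 172 and 188 CPM in AS. Genotypes overlapped in both fractions, and bright tdT lay above dim tdT in each genotype. Between bright tdT and dim tdT GEC the log2 fold change was 2.57 in WT (standard error 0.51, adjusted p = 0.00604) and 4.43 in AS (standard error 0.33, adjusted p = 1.82e-06). With 1 library left out the WT value ran from 2.18 to 3.39. AS over WT was -1.91 in dim tdT GEC (standard error 0.65, adjusted p = 0.106) and passed in 3 of 17 alternatives (adjusted p 0.0226 to 0.991), and in bright tdT GEC it was -0.0068 (95% interval -0.48 to 0.46, adjusted p = 0.988). The difference of the AS effects was 1.94 (standard error 0.67, adjusted p = 0.132). It ran from 1.09 to 2.45 with 1 library left out, and was 2.34 (adjusted p = 0.0348) without WT-dim tdT replicate 2.

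*F2r* (ENSMUSG00000048376, chromosome 13, 95601803 to 95618487, minus strand), the thrombin receptor, had 121, 120 and 93.3 CPM in WT-dim tdT, 51.6, 46.8 and 42.1 CPM in AS-dim tdT, 844, 1058 and 1155 CPM in WT-bright tdT and 1454, 1514 and 1390 CPM in AS-bright tdT libraries. No group overlapped another. AS-dim tdT was the lowest and AS-bright tdT the highest, and the 3 AS-bright tdT libraries differed little from each other (1452 ± 62.0 CPM, SD, n = 3). In dim tdT GEC AS was 2.40-fold below WT (log2 fold change -1.26, standard error 0.21, adjusted p = 0.0206). This call passed in 12 of 17 alternatives (adjusted p 3.20e-06 to 0.731) and was lost without AS-dim tdT replicate 1 (log2 fold change -1.36, adjusted p = 0.113), 2 (-1.30, 0.0530) or 3 (-1.18, 0.113). It was also lost with the proximal tubule (-1.06, 0.731) or leukocyte (-1.001, 0.338) markers as a covariate. In bright tdT GEC AS over WT was 0.45 (95% interval -0.0052 to 0.91, adjusted p = 0.233). The AS effects differed by 1.75 (standard error 0.26, adjusted p = 0.00432), which passed in 20 of 20 alternatives. Bright tdT over dim tdT GEC was 3.28 in WT (standard error 0.25, adjusted p = 2.61e-05) and 4.97 in AS (standard error 0.19, adjusted p = 3.59e-08), with 6.98-, 8.85- and 12.4-fold and 28.2-, 32.3- and 33.0-fold differences within mice. Against the endothelial markers *F2r* had 73.0 to 106 counts per 1000 in WT-dim tdT and 121 to 204 in AS-dim tdT libraries, so that on this scale AS-dim tdT was 1.76-fold higher than WT-dim tdT, and 0.898 of it against *Pecam1* and *Cdh5* alone. In bright tdT libraries the ratio was 55.6 to 82.5.

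The falls of *Plat* and *F2r* in AS-dim tdT GEC came beside a fall of 10 of the 15 endothelial markers (median log2 fold change -2.25) with none higher. In the same comparison 4 of 10 proximal tubule markers, 4 of 6 markers of the loop, distal tubule and collecting duct (671 to 1620 CPM summed in WT, 39.98 to 247 CPM in AS) and 3 of 8 podocyte markers were lower, and 3 of 18 leukocyte markers were higher, against 6.42% of all genes tested lower and 2.21% higher. The part of these in the results was not tested. The fits with marker covariates above cannot test it, since both marker sums separated WT-dim tdT from AS-dim tdT libraries.

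*Vwf* (ENSMUSG00000001930, chromosome 6, 125546774 to 125686679, plus strand) was the only 1 of the 9 genes that passed as lower in bright tdT than in dim tdT GEC, in either genotype. It had 6.46, 10.4 and 10.04 CPM in WT-dim tdT, 11.1, 9.33 and 10.3 CPM in AS-dim tdT, 1.86, 2.22 and 2.02 CPM in WT-bright tdT and 1.496, 1.09 and 1.01 CPM in AS-bright tdT libraries. Dim tdT lay above bright tdT in all 6 mice, 3.48- to 4.96-fold in WT and 7.45- to 10.2-fold in AS. Between bright tdT and dim tdT GEC the log2 fold change was -2.06 in WT (standard error 0.49, adjusted p = 0.0139), a call lost without WT-bright tdT replicate 3 (adjusted p = 0.0615), and -3.07 in AS (standard error 0.36, adjusted p = 5.40e-05). AS over WT was 0.18 in dim tdT (95% interval -0.64 to 1.01, adjusted p = 0.793) and -0.82 in bright tdT GEC (95% interval -1.86 to 0.23, adjusted p = 0.344), where every AS library lay below every WT library, as in 10.3% of all genes tested. The difference of the AS effects was -0.96 (95% interval -2.18 to 0.26, adjusted p = 0.398). Platelet and megakaryocyte markers, which mark other cells that hold *Vwf* RNA, summed to 21.9 to 31.4 CPM in dim tdT and 10.6 to 28.7 CPM in bright tdT libraries (9 and 7 of 10 listed). Of the 5 tested between the fractions, 3 were lower and 1 was higher in bright tdT GEC in each genotype, with medians of -3.55 in WT and -1.98 in AS. Of all genes tested 11.5% were lower and 13.8% higher in WT, and 26.5% and 28.6% in AS. The part of these markers in the *Vwf* level was not tested.

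**Figure D3:**
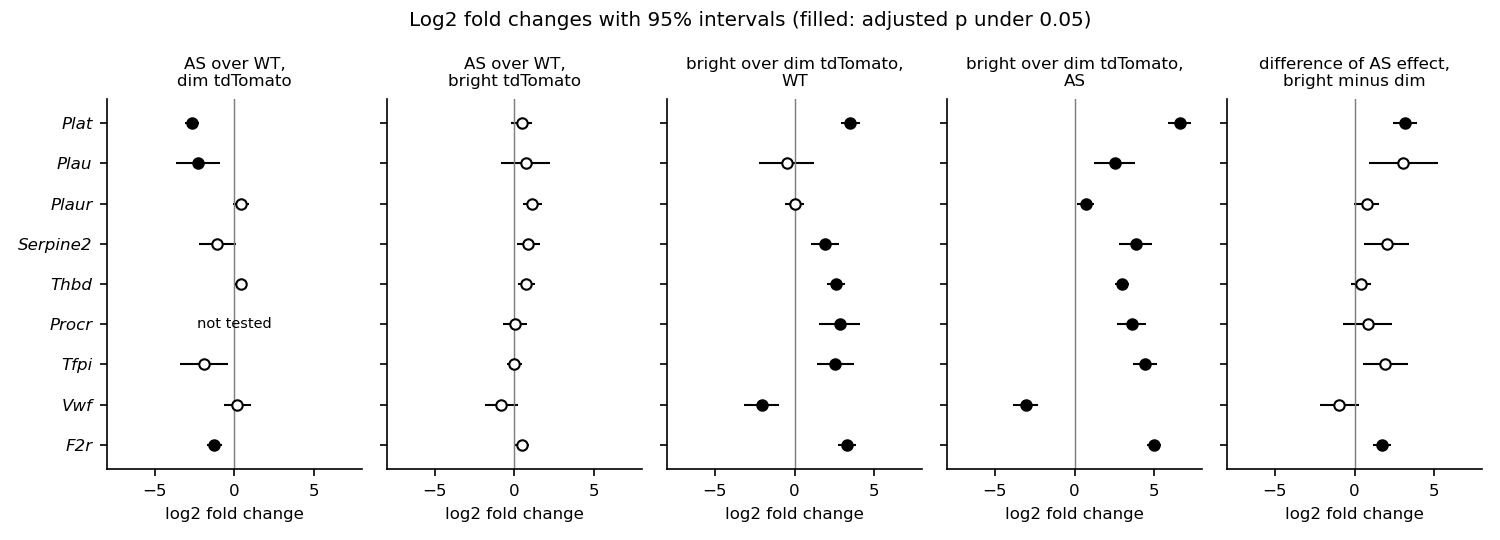
Log2 fold changes of the 9 genes with 95% intervals in the 5 comparisons, 1 panel each, with filled points for adjusted p under 0.05. In the panel of the AS effect in bright tdT GEC no point is filled, and in the panel of the difference of the AS effects the filled points are *Plat* at 3.15 and *F2r* at 1.75.

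Per kilobase the order of the genes differed between the fractions. The deposited RPKM divide by a gene length that sums the exons of all transcripts, so that they understate genes with many transcripts, and CPM per kilobase of merged exons are given beside them. In WT-bright tdT GEC the RPKM were 978 ± 173 for *Plat*, 313 ± 46.1 for *F2r*, 214 ± 49.0 for *Thbd*, 45.9 ± 15.4 for *Serpine2*, 18.6 ± 4.09 for *Plaur*, 7.04 ± 1.40 for *Tfpi*, 1.73 ± 0.340 for *Procr*, 0.330 ± 0.368 for *Plau* and 0.0708 ± 0.00508 for *Vwf* (SD, n = 3 each). Libraries of neighbours in this order overlapped only for *F2r* and *Thbd*. AS-bright tdT GEC had the same order, from 1369 ± 389 RPKM for *Plat* down to 0.0409 ± 0.00922 for *Vwf* (SD, n = 3 each), and there *F2r* and *Thbd*, and *Serpine2* and *Plaur*, overlapped. In AS-dim tdT GEC *Thbd* led with 47.8 ± 1.75 RPKM, followed by *Plaur* with 25.7 ± 4.67, *Plat* with 14.3 ± 2.89 and *F2r* with 14.1 ± 1.60 (SD, n = 3 each), the last 2 of which overlapped. *Plat* led in WT-dim tdT GEC with 83.4 ± 3.05 RPKM (SD, n = 3). On merged exons *Plat* still led in WT-dim tdT (102 ± 6.62 CPM per kilobase) and in both bright tdT groups, but *Plaur* came before *Thbd* in both dim tdT groups, with 66.5 ± 11.4 against 47.5 ± 2.35 CPM per kilobase in AS-dim tdT GEC (SD, n = 3 each). *Tfpi*, whose deposited length is 4.37 times its merged exons, had 29.9 ± 5.69 CPM per kilobase in WT-bright tdT GEC on that scale (SD, n = 3).

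**Figure D4:**
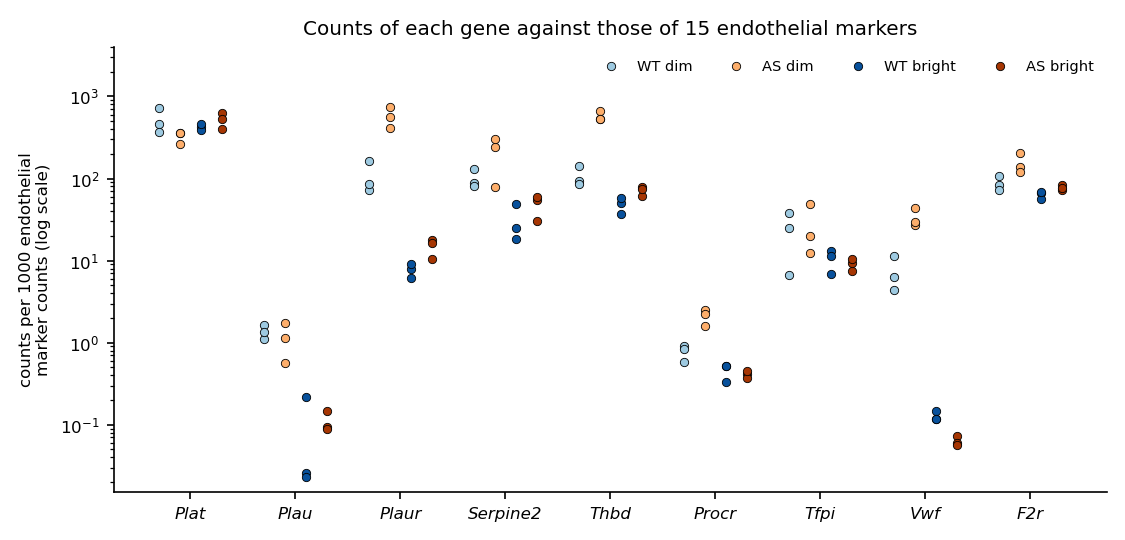
Counts of each gene per 1000 counts of 15 endothelial markers, on a log axis, with 1 point for each library and a colour for each group. *Plat* stays within 265 to 715 in all 12 libraries, while *Vwf* runs from 0.0562 to 0.0736 in AS-bright tdT to 27.5 to 44.0 in AS-dim tdT libraries.

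Set against the endothelial markers, all 9 genes but *Plat* had a lower mean in bright tdT than in dim tdT libraries of both genotypes, and *Plat* did so in WT only. *Tfpi* (6.59 to 38.4 counts per 1000 in WT-dim tdT, 6.96 to 12.9 in WT-bright tdT) and *Plat* overlapped between the fractions in WT, and no gene did in AS. The ratio of dim tdT to bright tdT means was largest for *Vwf*, 58.1 in WT and 534 in AS, followed by *Plau* (15.4) and *Plaur* (13.9) in WT, and by *Plaur* (38.4) and *Plau* (10.4) in AS. In *F2r* it was 1.38 in WT and 2.001 in AS. With *Pecam1* and *Cdh5* alone as the denominator, each of these 9 genes kept the direction of its bright tdT over dim tdT ratio in both genotypes.

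The genes whose log2 CPM followed each of the 9 most closely over the 12 libraries, among 12654 genes, are a description, since the libraries share the step between dim tdT and bright tdT. Among them were *Pxdn* (Pearson's r = 0.996) and *Eng* (0.994) for *Plat*, *Hbegf* (0.996) for *F2r*, *Socs3* (0.993) and *Git1* (0.991) for *Thbd*, and *Crip2* and *Cd300lg* (both 0.993) for *Procr*. *Sfrp2* (0.992) and *Crry-ps* (0.978) were closest to *Serpine2*, and *Cmtm8* (0.980) and *Cyp26b1* (0.979) to *Tfpi*. *Vwf* went with *E230029C05Rik* (0.988) and *Tspan13* (0.986), *Plaur* with *Arid5a* (0.938), and *Plau* with *Pebp1* (0.902). *Socs3*, a feedback inhibitor of cytokine signalling, had 162 to 310 CPM in dim tdT and 1184 to 3134 CPM in bright tdT libraries. A list of 12 immediate-early response genes, which tissue digestion can induce, summed to 8157 to 12127 CPM in dim tdT and 25571 to 39061 CPM in bright tdT libraries, and its part in the levels of *Thbd*, *F2r* and *Plaur* was not tested.

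The surroundings of these genes were followed with 50 other haemostasis genes in 6 roles, of which the table of the dim libraries listed 37, that of the bright libraries 34, and both 32. *Plg*, which makes plasminogen itself, was in neither table. Of those tested for bright tdT over dim tdT GEC, 6 of 31 were higher and 5 lower in WT, and 13 of 27 were higher and 5 lower in AS, with medians of 0.24 and 0.52 on the log2 scale. Over all genes tested 13.8% were higher and 11.5% lower in WT, and 28.6% and 26.5% in AS. By role in AS, 5 of 5 genes that process clotting factors were higher, with 1 of 7 coagulation factors higher and 3 lower, 2 of 5 anticoagulants higher and 1 lower, 3 of 6 plasminogen system genes higher and 1 lower, and 2 of 4 genes of platelet binding and inhibition higher. In WT the counts were 1 of 5 factor-processing genes higher, 1 of 8 coagulation factors higher and 3 lower, 1 of 6 anticoagulants higher and 1 lower, 2 of 7 plasminogen system genes higher and 1 lower, and 1 of 5 genes of platelet binding and inhibition higher. The role of platelet binding and inhibition counts *Mmrn2*, an endothelial matrix protein, which was the 1 higher in WT and among the 2 higher in AS. No other thrombin receptor was in both tables, so none was tested between the fractions.

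Among the coagulation factors the 3 that were lower in bright tdT GEC were *F13a1*, the transglutaminase subunit that crosslinks fibrin, *F5* and *F10*, the parts of the prothrombin-cleaving complex. *F13a1* had 202, 125 and 468 CPM in WT-dim tdT and 564, 866 and 716 CPM in AS-dim tdT libraries, against 0.448, 0.693 and 0.196 CPM in WT-bright tdT and 2.85, 2.96 and 1.88 CPM in AS-bright tdT libraries. Its log2 fold change between bright tdT and dim tdT GEC was -9.12 in WT (adjusted p = 1.77e-05) and -8.10 in AS (adjusted p = 3.26e-08). *F5* changed by -5.56 in WT (adjusted p = 0.000232) and -6.78 in AS (adjusted p = 3.37e-07). *F10* changed by -5.83 in WT (adjusted p = 0.00140) and -8.03 in AS (adjusted p = 3.16e-08). Monocytes and macrophages are known to hold *F13a1* RNA, and in both genotypes 14 of 14 leukocyte markers tested were also lower in bright tdT GEC. The part of leukocyte RNA in these genes was not tested.

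*F8*, whose product circulates bound to von Willebrand factor, went the other way, with 2.47 to 16.1 CPM in WT-dim tdT, 0.833 to 2.24 CPM in AS-dim tdT, 128 to 204 CPM in WT-bright tdT and 60.9 to 196 CPM in AS-bright tdT libraries. Its log2 fold change was 4.17 in WT (adjusted p = 0.000554) and 5.99 in AS (adjusted p = 1.99e-05). *Mmrn2*, an endothelial matrix protein of the multimerin family, rose by 3.90 in WT (adjusted p = 0.000176) and 6.86 in AS (adjusted p = 1.01e-07). *Pros1*, the protein S gene, rose by 2.90 in WT (adjusted p = 0.000270) and 2.96 in AS (adjusted p = 3.87e-06), and *Serpini1*, a serpin that inhibits tissue-type plasminogen activator, by 2.40 in WT (adjusted p = 0.0159) and 3.17 in AS (adjusted p = 2.25e-06). *F3*, the tissue factor gene, was barely detected, with 0.0800 to 3.83 CPM in dim tdT and 0.902 to 3.25 CPM in bright tdT libraries, and it did not pass in WT (-1.12, adjusted p = 0.189) or AS (1.35, adjusted p = 0.0824).

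**Figure D5:**
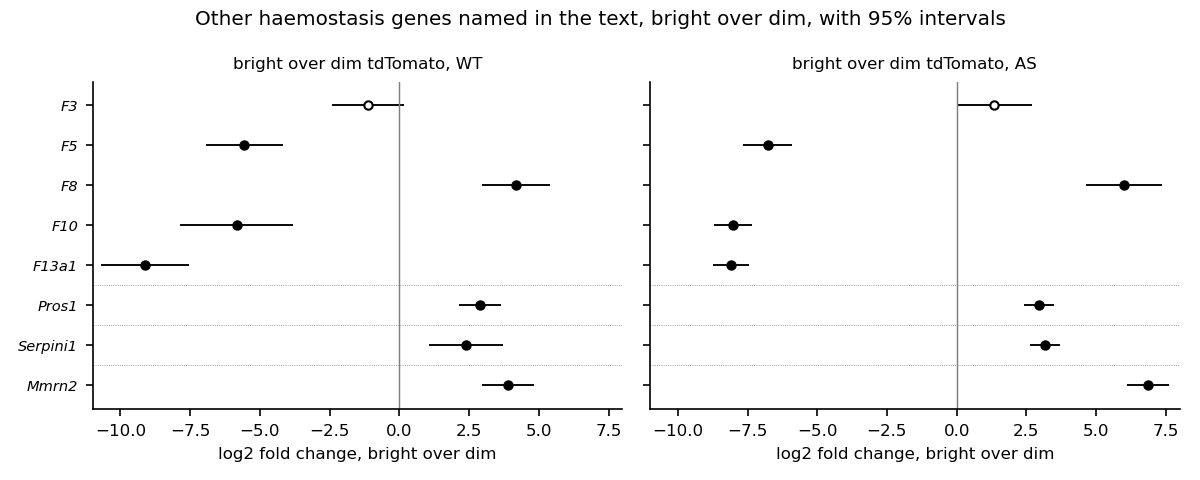
Log2 fold changes of bright tdT over dim tdT GEC with 95% intervals for 8 of the other haemostasis genes, those named above with values for both genotypes, in order of role, with WT on the left and AS on the right and filled points for adjusted p under 0.05. *F13a1*, *F5* and *F10* lie at -5.56 or below in both panels, and *Mmrn2* and *F8* lie at 3.90 and above.

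For AS over WT in dim tdT GEC, 1 of 33 of these genes was higher and 4 were lower, against 2.21% and 6.42% of all genes tested. The higher one was *Lrp1*, the receptor that clears complexes of plasminogen activators with their inhibitors, which went from 67.7, 89.1 and 87.3 CPM in WT to 237, 235 and 214 CPM in AS (log2 fold change 1.48, standard error 0.19, adjusted p = 0.0168). The lower ones were *Mmrn2* (-2.56, adjusted p = 0.0248), *Tfpi2* (-4.09, adjusted p = 0.0263), *F13b* (-4.45, adjusted p = 0.0302) and *Vkorc1*, the target of warfarin (-2.20, adjusted p = 0.0455). Of 17 alternatives each, *Lrp1* passed in 13, *Mmrn2* and *Tfpi2* in 10, *F13b* in 9 and *Vkorc1* in 7. *F13b*, like *Proc*, the protein C gene (-4.97, adjusted p = 0.0591), had its highest dim tdT levels in WT replicate 1 (52.4 CPM for *F13b*, 71.3 CPM for *Proc*) and, within AS, in replicate 2 (4.25 and 2.25 CPM). The proximal tubule sum was also highest in these libraries of each group, at 6429 CPM and 373 CPM, and its part in the levels was not tested. In the fit with these markers as a covariate *F13b* was at -1.34 (adjusted p = 0.880) and *Proc* at 0.82 (adjusted p = 0.975). That fit cannot separate genotype from marker level, since the sums of WT-dim tdT and AS-dim tdT libraries did not overlap. *F3* did not pass for AS over WT in dim tdT GEC (-1.21, adjusted p = 0.346). In bright tdT GEC none of 29 passed, at an all-gene rate of 0.452%. The 6 with the smallest unadjusted p were *F13a1* (2.46, adjusted p = 0.0653), *F3* (1.28, adjusted p = 0.172), *Serpinf2* (-2.10, adjusted p = 0.192), *Plgrkt* (-0.54, adjusted p = 0.194), *F13b* (-2.26, adjusted p = 0.216) and *Proc* (-2.20, adjusted p = 0.220). The AS effect differed between the fractions for 1 of 32, *Mmrn2* (3.02, adjusted p = 0.00801), against 3.77% of all genes tested. The next in order were *Tfpi2* (3.85, adjusted p = 0.0515), *Nt5e* (2.13, adjusted p = 0.0704), *Lman1* (0.98, adjusted p = 0.115), *F3* (2.53, adjusted p = 0.133) and *Vkorc1* (1.68, adjusted p = 0.201).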

How the data were processed

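RNA-seq counts of 12 libraries (dim and bright tdTomato GEC of 3 WT and 3 AS mice) were used. Per the labels and the study's methods, the authors trimmed the reads, aligned them with STAR 2.6.0c to GRCm38.p5 (versions from the submitters' processing notes), counted them on genes and deposited the raw counts, 1 table per fraction. The strand counted is not given in the sources used here. No other annotated gene overlaps any of the 9 genes. The authors also deposited RPKM, which were used only for levels per length, and a gene length. That length was within 1% of the summed exons of all transcripts for 90.67% of 17778 genes matched to Gencode on GRCm38, against 26.38% for merged exons. The deposited fold changes, logCPM, likelihood ratio statistics, p-values and FDR of AS over WT were not used. ERCC spike-ins (0.0286% to 0.282% of counts) were left out.

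Counts were tested in R 4.3.3 with edgeR 4.0.16 (filterByExpr, TMM, quasi-likelihood test with legacy = FALSE, Benjamini-Hochberg adjustment over all genes tested, threshold 0.05). AS over WT used the 6 libraries of a fraction, bright over dim the 6 of a genotype on genes in both tables, and the difference of the AS effects an interaction over all 12. These main fits did not pair the dim and bright libraries of a mouse, and the mouse entered only as an alternative. Likeness used log2 CPM with a prior count of 2. Depth was 11440169 to 15074909 counts per library. Tested on simulated data, the fits missed part of the changed genes, and the share of false calls was above the 0.05 threshold in 4 of the 5 comparisons. No replicate pair looked like a library deposited again (chi-square 29.5 to 104 times its degrees of freedom). Libraries with the same mouse number in the labels come from 1 mouse, which is where the pairing of fractions comes from. Deviations from the group means correlated at 0.0931 to 0.462 within a mouse. In AS 2 pairs from different mice reached 0.129 and 0.244, above the mice they share a dim library with (0.105 and 0.218). For AS over WT a replicate number joins different mice.

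Alternatives were RLE, library sizes alone, other filters on low counts, DESeq2 1.42.0, edgeR's likelihood ratio test, a replicate block, all 12 libraries in 1 fit, marker covariates and each library left out. The version 3 fit of edgeR and merged exons were added after seeing the data. The members and gene lists were chosen with earlier results of these data known. By rule the text names the 9 genes in every comparison, *F3* and *Plg*, the 6 other haemostasis genes with the smallest unadjusted p in each comparison, and for each of the 9 genes the 2 with the highest Pearson's r. A gene named for 1 genotype is given in the other too. Some genes that this rule selects are not reported here. Promoters are RefSeq's (GRCm38.p6). *Plat*, *Plau*, *Thbd* and *Vwf* had no entry.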

Additional observations from a re-analysis of the deposited data

Results flagged for a closer look

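The effect of AS on *Plat* differed between bright tdT and dim tdT GEC by 3.15 on the log2 scale (95% interval 2.38 to 3.91, adjusted p = 0.00222, Benjamini-Hochberg, edgeR interaction term). AS over WT was -2.65 in dim tdT and 0.46 in bright tdT GEC.

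The effect of AS on *F2r* differed between the fractions by 1.75 (95% interval 1.18 to 2.31, adjusted p = 0.00432 from the same test). AS over WT was -1.26 in dim tdT and 0.45 in bright tdT GEC. In the same test 12 of 15 endothelial markers passed as higher and 0 as lower, with a median difference of 2.57. A difference in this direction was thus not particular to *Plat* and *F2r*.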

How the results depend on the processing

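Between bright tdT and dim tdT GEC 7 of the 9 genes passed in WT and 9 in AS, and 6 to 7 and 8 to 9 did with any 1 library left out. For AS over WT in dim tdT GEC, 3 of the 8 genes tested passed (*Plat*, *Plau*, *F2r*). With the proximal tubule or the leukocyte markers as a covariate, which leaves fewer degrees of freedom, 0 passed, and with 1 library left out 0 to 3 did, the 0 without AS-dim tdT replicate 1. With either covariate 0 of all 14637 genes tested passed. The sums of both lists did not overlap between the genotypes in dim tdT libraries, so these fits cannot separate genotype from marker level. In bright tdT GEC 0 passed, against 2 in DESeq2, 1 in edgeR's likelihood ratio test, 1 with the leukocyte covariate and 0 to 1 with a library left out. For the difference of the AS effects 2 passed, and 2 to 3 with a library left out. The cause of these changes was not tested.

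Counts of all genes called moved more. They were 1263 for AS over WT in dim tdT (0 to 2213 over the alternatives, 0 without AS-dim tdT replicate 1 and with either covariate), 65 in bright tdT (0 to 1117, 0 without WT-bright tdT replicate 3 or AS-bright tdT replicate 1 or 3 and with the proximal tubule covariate, 905 with the leukocyte covariate), 3604 and 7743 between the fractions in WT (2534 to 5207) and AS (6594 to 7755), and 569 for the difference (252 to 1186). DESeq2 called 2213 and the added version 3 fit of edgeR 582 in dim tdT, against 1117 and 0 in bright tdT.

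With the replicate block, which is the mouse for bright tdT over dim tdT and for the difference, 7, 9 and 3 of the 9 genes passed, the added one being *Serpine2*, and 4444, 7755 and 877 of all genes did, the last against 569 without the block. In the comparisons of AS with WT, where the number joins different mice, the block left 2 genes in dim tdT (*Plau* adjusted p = 0.0800) and 0 in bright tdT, and 494 and 16 of all genes. It changed no other call of the 9 genes.

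Direction reversed in 24 cases, none of which passed. With the proximal tubule covariate AS over WT (log2) was -0.23 for *Plaur* and -0.28 for *Vwf* in dim tdT, and -0.065 for *Plat*, -0.16 for *Procr* and 0.085 for *Tfpi* in bright tdT. With the leukocyte covariate it was -0.079 for *Plaur*, 0.29 for *Serpine2* and -0.47 for *Vwf* in dim tdT. *Tfpi* in bright tdT was 0.012 with every gene, 0.0066 with the replicate block and 0.068 with all 12 libraries, and -0.14 to 0.11 with 1 left out. *Procr* there ran from -0.046 to 0.18 with 1 left out. *Plaur* in bright tdT over dim tdT of WT was -0.028 with RLE, -0.0063 with genes above a logCPM of 1, -0.028 in DESeq2 and -0.036 with all 12 libraries, and -0.16 to 0.13 with 1 left out.

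The median difference of the AS effects over all genes was 0.13 with TMM, 0.082 with RLE and -0.030 with library sizes alone, against 3.15 and 1.75 for *Plat* and *F2r*. Over the 15 endothelial markers the median with TMM was 2.57. Of 36 ratios to endothelial markers 21 moved by more than 1 SD with *Pecam1* and *Cdh5* alone, and 21 of 72 levels per length moved with another length. At 2 to 43 counts per library *Plau* differences are limited by depth.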
